A study of Homo sapiens with 12 samples.

Results

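The receptors and ligands of the ERBB family were examined on 12 Affymetrix expression arrays of LNCaP, an androgen-sensitive human prostate adenocarcinoma cell line. The family was taken as 7 genes, EGFR, ERBB2, ERBB3, ERBB4, AREG, EGF and HBEGF, of 19775 named on the array, and every probe set whose platform symbol was one of these names was used. A probe set is a group of short oligonucleotide probes that together report one transcript or transcript group. There were 26 such probe sets of 54675 on the array: 9 for EGFR, 3 for ERBB2, 5 for ERBB3, 4 for ERBB4, 1 for EGF and 4 for HBEGF. No probe set carried the symbol AREG in the platform table used, so AREG was not analysed here.

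All cells were androgen-deprived for 48 h and transfected, either with control siRNA or with siRNA against SRF, the serum response factor, a transcription factor that pairs with actin-sensing and ERK-sensing cofactors. From 42 h after transfection they received ethanol vehicle or 5 nM R1881, a synthetic androgen, for 48 h. The 4 groups (control siRNA with vehicle, control siRNA with R1881, SRF siRNA with vehicle, SRF siRNA with R1881) held 3 arrays each. The labels call these biological replicates without saying that they came from separate cultures. The p-values below therefore weigh group differences against the spread among these arrays, which may not include variation between cultures. The arrays are bulk samples, in which fewer cells of a type and less RNA per cell cannot be told apart.

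ERBB receptors are cell-surface tyrosine kinases that pair with each other when a ligand binds and then signal to the RAS-ERK and PI3K-AKT routes. EGFR binds EGF, amphiregulin (AREG) and HB-EGF (HBEGF), ERBB4 binds HB-EGF and neuregulins, ERBB3 binds neuregulins and has little kinase activity of its own, and ERBB2 has no known ligand and acts as the preferred partner of the others. The ligands are made as membrane-anchored precursors that metalloproteases of the ADAM family release. In prostate cancer cells, signalling by ERBB2 and ERBB3 is known to interact with androgen receptor activity.

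SRF itself was measured by a probe set (202401_s_at) that gave log2 signals of 6.07 ± 0.14 with control siRNA and 4.74 ± 0.28 with SRF siRNA in vehicle, and of 6.30 ± 0.18 and 4.87 ± 0.13 in R1881 (SD, n = 3 each). The signal left was 39.5% in vehicle and 36.9% in R1881 (limma adjusted p = 1.54e-05 and 6.91e-06). Another SRF probe set, 202400_s_at, lay between 2.56 and 2.87 on every array, below a log2 value of 4, and was not tested. Its means were 2.71 and 2.60 with control and SRF siRNA in vehicle, and 2.73 and 2.64 in R1881. Of the 10 luminal prostate markers listed, 8 had a probe set and all 8 lay above a log2 value of 4 on every array. Of the basal or mesenchymal markers 3 of 4 lay below 4 on every array, of the fibroblast markers 4 of 6 and of the leukocyte markers 3 of 4. VIM, the mesenchymal marker above 4 on all arrays, had group means of 6.76, 6.31, 7.74 and 8.25 in the order given above. The summed log2 levels in the 4 groups, in the same order, were 82.5, 94.5, 79.4 and 92.7 for the luminal list. They were 13.8, 13.3, 14.8 and 15.5 for the basal or mesenchymal list, 23.0, 19.9, 24.3 and 20.7 for the fibroblast list, and 9.93, 9.99, 9.98 and 11.2 for the leukocyte list. In the last pair of lists a single gene carried most of the shift, COL3A1 with group means of 6.45, 2.97, 7.92 and 4.07 and LYZ with 2.84, 2.89, 2.84 and 4.03, the latter above 4 on 1 array. In the luminal list KLK2, KLK3, TMPRSS2, KRT8 and KRT18 had higher means in R1881 than in vehicle with both siRNAs. The means of HOXB13, FOLH1 and EPCAM were lower. KLK2 had group means of 7.67, 12.61, 5.80 and 11.67, and HOXB13 of 10.44, 9.30, 11.22 and 10.23. On the GAPDH control probes, the 3′ minus the 5′ log2 signal, which grows as RNA degrades, ran from 0.0667 to 0.244 in control vehicle and from 0.445 to 0.491 in control R1881. In the SRF-silenced groups it ran from 0.315 to 0.393 in vehicle and from 0.368 to 0.641 in R1881, where the third array was highest. The part of these measures in the results was not tested.

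A probe set was tested when its log2 signal was above 4 on at least 3 arrays, which 21526 of all probe sets and 11 of the 26 did: 3 for EGFR, 2 for ERBB2, 3 for ERBB3, 1 for EGF and 2 for HBEGF. The other 15 did not. All 4 ERBB4 probe sets lay between 1.89 and 2.64 on every array, so ERBB4 was below the filter value in each group. The 6 untested EGFR probe sets lay between 1.60 and 2.80, the untested ERBB2 probe set between 1.85 and 1.93, the 2 of ERBB3 between 2.51 and 3.89 and the 2 of HBEGF between 2.57 and 2.68. Signals of different probe sets are not on a shared scale, so levels were compared within a probe set only.

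RefSeq promoter windows (build GRCh38.p14, 250 bases before to 50 after a transcript start) were matched for 6 of the 7 genes, all but ERBB3, with 2 starts for EGFR. The windows of EGFR, the receptor gene that fell most with SRF siRNA, and of EGF and HBEGF, whose R1881 response differed between the siRNAs, are given 5′ to 3′ on the gene's strand. They lie at chr7:55018767-55019066 on the plus strand for EGFR, chr4:109912633-109912932 on the plus strand for EGF and chr5:140346554-140346853 on the minus strand for HBEGF. Capitals mark GC boxes (GGGCGG on either strand) and AP-1 sites (TGANTCA on either strand).
EGFR: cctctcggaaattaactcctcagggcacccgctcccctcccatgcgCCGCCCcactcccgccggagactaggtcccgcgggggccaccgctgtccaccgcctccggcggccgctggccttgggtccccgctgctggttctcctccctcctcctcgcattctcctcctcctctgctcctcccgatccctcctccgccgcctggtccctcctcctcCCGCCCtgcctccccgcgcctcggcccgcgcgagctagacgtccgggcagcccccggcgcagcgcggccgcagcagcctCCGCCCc
EGF: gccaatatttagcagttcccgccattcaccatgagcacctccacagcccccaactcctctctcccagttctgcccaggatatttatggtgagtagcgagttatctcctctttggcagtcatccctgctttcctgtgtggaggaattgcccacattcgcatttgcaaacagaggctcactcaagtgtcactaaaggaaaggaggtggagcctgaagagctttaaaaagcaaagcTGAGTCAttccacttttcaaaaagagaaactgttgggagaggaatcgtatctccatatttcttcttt
HBEGF: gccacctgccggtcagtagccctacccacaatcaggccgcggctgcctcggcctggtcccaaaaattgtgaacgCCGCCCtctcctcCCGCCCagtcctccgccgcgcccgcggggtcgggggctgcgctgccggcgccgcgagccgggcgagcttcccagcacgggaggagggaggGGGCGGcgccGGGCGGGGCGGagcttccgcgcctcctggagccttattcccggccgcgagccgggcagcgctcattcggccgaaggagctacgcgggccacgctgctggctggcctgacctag
The EGFR window held 3 GC boxes and the HBEGF window 5, of which the 2 nearest the start share a base, while the EGF window held none. A GC box was found in 45.0% of the 35114 promoter windows of this length. The EGF window held an AP-1 site from -17 to -11 relative to the start, a motif found in 7.71% of all windows. The second EGFR window, not shown, held 2 matches to TGANTCA, and the ERBB2 window held 1, which reads TGATTCA. The CArG box, to which SRF binds, was searched only as CC, then 6 bases of A or T, then GG, with no mismatch. In this form it was found in 1.29% of all windows and in none of the 7 windows of this family. The androgen receptor core TGTTCT, searched on both strands and found in 14.8% of all windows, was in none of the 3 windows shown and once each in the ERBB2, ERBB4 and second EGFR windows. The match of letters is a description of these windows only.

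With R1881 in control cells 10 of the 11 tested probe sets passed, 6 higher and 4 lower (limma, adjusted p under 0.05), where 55.8% of all 21526 tested probe sets were called, 24.0% higher and 31.8% lower. The count was 6 with no filter and 5 at an adjusted p under 0.01. The 6 that rose were those of EGFR, EGF and HBEGF, and the 4 that fell were both of ERBB2 and 2 of the 3 of ERBB3. In silenced cells 4 rose and 4 fell with R1881, where 47.5% of all were called, 20.8% higher and 26.7% lower. SRF siRNA lowered 8 and raised 1 in vehicle, where 49.1% of all were called, 22.7% lower and 26.4% higher. In R1881 it lowered 9 and raised 0, where 53.1% of all were called, 24.2% lower and 29.0% higher, and all 11 values lay below 0. For the difference of R1881 effects 3 of the 11 passed, all lower, where 18.6% of all passed and 8.84% were lower. Among these 3 was HBEGF 38037_at, also the 1 raised by SRF siRNA in vehicle. It entered the test only through the groups where it is high, and it is counted in all 5 comparisons. With values under 4 set to 4, or with a filter value of 5, the counts called were 9, 7, 8, 8 and 2 in the order given.

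The median log2 change with SRF siRNA over the 11 probe sets was -0.64 in vehicle and -1.10 in R1881, beside 0.03 and 0.04 over all tested. With R1881 it was 0.59 in control cells and -0.20 in silenced cells, beside -0.07 and -0.06 over all. Probe sets of the same gene share a target, so the 11 stand for 5 genes. The comparisons share arrays, each group entering 2 of the 4 simple comparisons. Array groups without overlap were common in the whole table. All 11 probe sets were apart between R1881 and vehicle with control siRNA, against 64.1% of all, and 8 with SRF siRNA, against 55.3%. All 11 were apart between the siRNAs in vehicle, against 57.3% of all, and 10 in R1881, against 62.1%.

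EGFR rose with R1881 and fell with SRF siRNA on all 3 tested probe sets. The brightest, 224999_at, read 8.08, 7.92 and 8.09 (log2 signal) in control vehicle and 8.62, 8.70 and 8.66 in control R1881. With SRF siRNA it read 7.07, 6.85 and 6.97 in vehicle and 7.55, 7.51 and 7.47 in R1881. The 4 groups did not overlap, and their order was control R1881, control vehicle, silenced R1881, silenced vehicle, so that the silenced cells given androgen stayed below the control cells without it. R1881 raised this probe set by 0.63 ± 0.08 on the log2 scale (SE), or 1.55-fold, with control siRNA (limma adjusted p = 3.26e-05). With SRF siRNA the rise was 0.55 ± 0.08, or 1.46-fold (adjusted p = 0.000139).

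SRF siRNA lowered the same EGFR probe set to 47.6% of the control signal in vehicle (-1.07 ± 0.08, adjusted p = 8.39e-07) and to 45.0% in R1881 (-1.15 ± 0.08, adjusted p = 3.68e-07). A larger change than this was seen in 8.33% of all tested probe sets in vehicle and in 8.39% in R1881. The probe set 201983_s_at read 6.0, 5.56 and 5.78 in control vehicle, 6.65, 6.17 and 6.35 in control R1881, 4.02, 4.24 and 4.13 in silenced vehicle and 5.18, 5.22 and 4.97 in silenced R1881. The group order was the same, again with no overlap, and the fall with SRF siRNA was larger, to 31.9% in vehicle and to 41.5% in R1881 (-1.65 ± 0.14 and -1.27 ± 0.14, adjusted p = 2.46e-06 and 1.43e-05). The probe set 201984_s_at read 5.68, 5.50 and 6.04 in control vehicle, 6.46, 6.40 and 6.25 in control R1881, 4.15, 4.15 and 4.89 in silenced vehicle and 5.14, 5.24 and 5.32 in silenced R1881. It kept the same order, and its fall was -1.34 ± 0.19 in vehicle and -1.13 ± 0.19 in R1881 (adjusted p = 0.000117 and 0.000354). The 3 EGFR probe sets correlated across the 12 arrays at a Pearson r of 0.948 to 0.969, a description over arrays that share groups.

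The R1881 effect on EGFR did not pass the test for a difference between the siRNAs on any of the 3 probe sets. For 224999_at the difference (effect with SRF siRNA minus effect with control siRNA) was -0.08, with a 95% interval of -0.32 to 0.16. For 201984_s_at the interval ran from -0.38 to 0.80 and for 201983_s_at from -0.05 to 0.81 (adjusted p = 0.67, 0.642 and 0.217 in that order). The R1881 rises of the last pair with control siRNA were 0.63 ± 0.19 and 0.62 ± 0.14 (adjusted p = 0.0138 and 0.00264), and with SRF siRNA 0.84 ± 0.19 and 0.99 ± 0.14 (adjusted p = 0.00326 and 0.000116). Without the second control vehicle array the rise of 201984_s_at with control siRNA was 0.51 and did not pass (adjusted p = 0.0601), and with no filter it did not pass either (adjusted p = 0.0568).

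**Figure D1:**
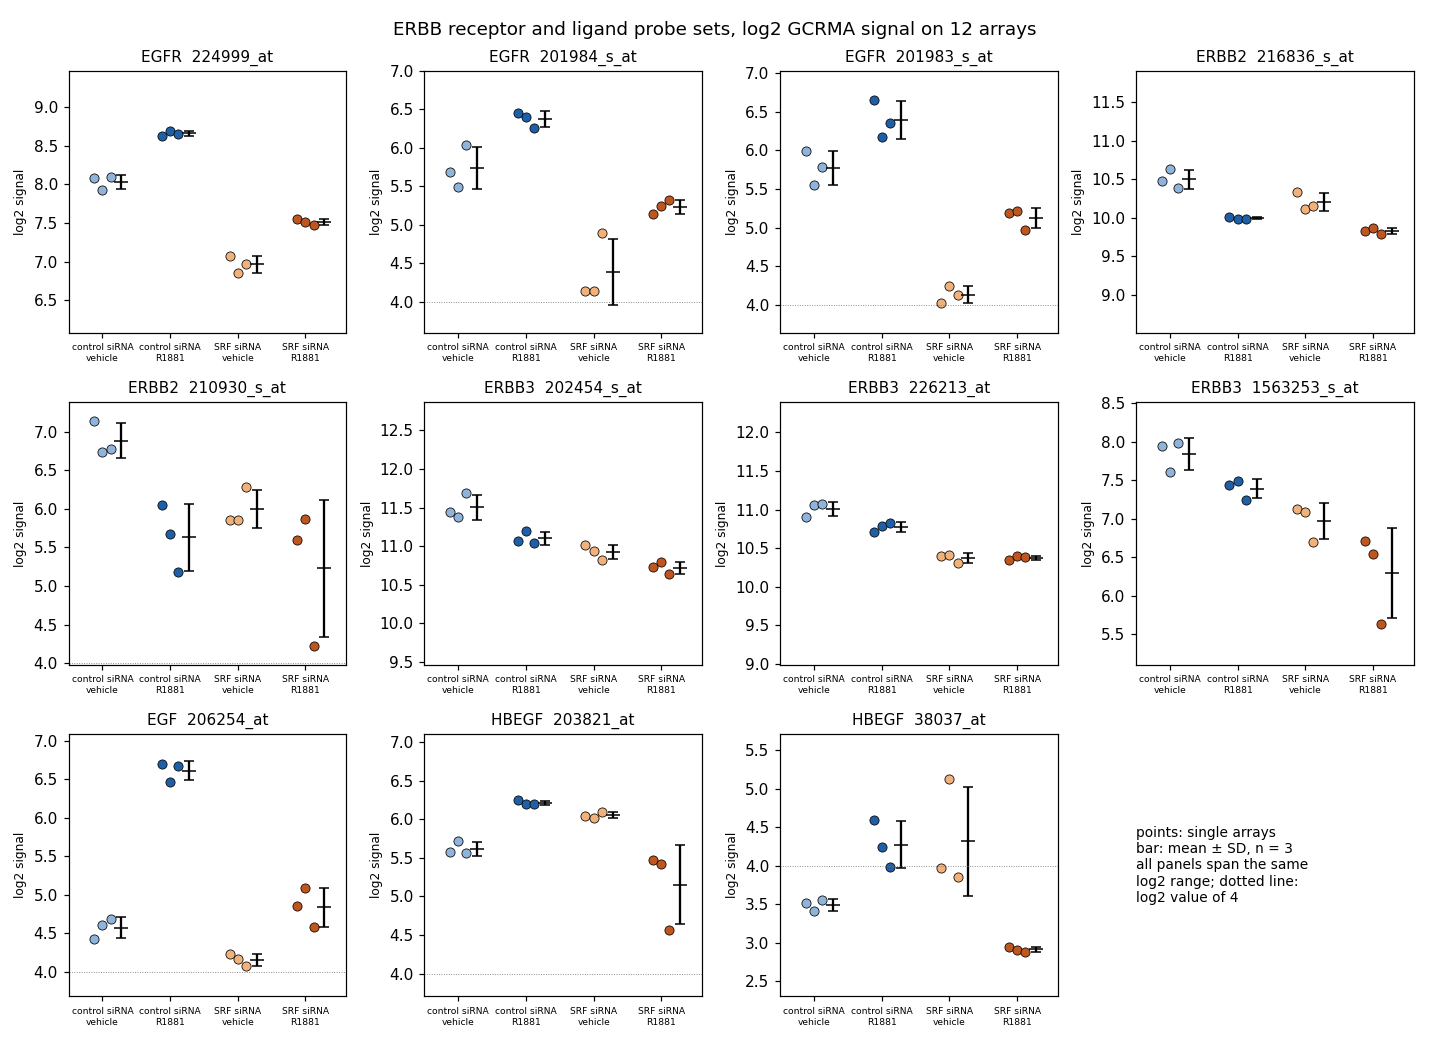
Log2 signal (vertical axis) of the 11 tested probe sets on each of the 12 arrays, by group (horizontal axis). Points are single arrays and bars the mean ± SD of 3 arrays. The 3 EGFR probe sets share an order of groups, EGF is highest in control R1881, and both HBEGF probe sets are lowest in silenced R1881.

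ERBB2, the receptor without a ligand, fell with R1881 in control cells. The bright probe set 216836_s_at read 10.48, 10.63 and 10.39 in control vehicle, 10.01, 9.99 and 9.99 in control R1881, 10.34, 10.12 and 10.16 in silenced vehicle and 9.83, 9.86 and 9.79 in silenced R1881. No groups overlapped, with control vehicle highest and silenced R1881 lowest. R1881 lowered the signal to 70.6% with control siRNA and to 76.9% with SRF siRNA (-0.50 ± 0.08 and -0.38 ± 0.08, adjusted p = 0.000305 and 0.00288). SRF siRNA lowered it to 81.6% in vehicle (-0.29 ± 0.08, adjusted p = 0.0124), a call lost without the second array of either vehicle group (adjusted p = 0.0532 and 0.0527). In R1881 the change was -0.17 with a 95% interval of -0.35 to 0.01 (adjusted p = 0.11).

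The dimmer ERBB2 probe set 210930_s_at read 7.14, 6.74 and 6.77 in control vehicle, 6.05, 5.67 and 5.18 in control R1881, 5.85, 5.86 and 6.28 in silenced vehicle and 5.59, 5.87 and 4.22 in silenced R1881. The third array of the last group stood well below the other two, and the vehicle and R1881 groups overlapped after silencing. It fell with R1881 in control cells (-1.25 ± 0.36, adjusted p = 0.011), a call lost with no filter (adjusted p = 0.0551). Its other changes did not pass: -0.77 for R1881 with SRF siRNA (adjusted p = 0.1), -0.89 for SRF siRNA in vehicle (adjusted p = 0.0603) and -0.41 for SRF siRNA in R1881 (adjusted p = 0.372). It passed at -1.10 (adjusted p = 0.0306) for R1881 with SRF siRNA when the second silenced R1881 array was left out, and was -0.27 (adjusted p = 0.39) without the third one. Without the third array the change with SRF siRNA in vehicle passed (adjusted p = 0.00478), and the value in R1881 turned to 0.10 (adjusted p = 0.761). The difference of R1881 effects was 0.48 (95% interval -0.63 to 1.60, adjusted p = 0.567) for this probe set and 0.12 (-0.14 to 0.38, adjusted p = 0.521) for 216836_s_at. Without the third array of both silenced groups the former was 1.13 and passed (adjusted p = 0.0422).

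ERBB3, the receptor partner with little kinase activity, was lower after SRF siRNA on all 3 tested probe sets and under both treatments. The probe set 226213_at read 10.90, 11.05 and 11.07 in control vehicle, 10.70, 10.78 and 10.83 in control R1881, 10.40, 10.41 and 10.30 in silenced vehicle and 10.34, 10.40 and 10.38 in silenced R1881. The silenced groups lay below both control groups and overlapped each other. SRF siRNA left 64.2% of the signal in vehicle and 75.9% in R1881 (-0.64 ± 0.07 and -0.40 ± 0.07, adjusted p = 2.60e-05 and 0.000741).

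The probe set 202454_s_at read 11.44, 11.37 and 11.69 in control vehicle, 11.06, 11.20 and 11.04 in control R1881, 11.01, 10.93 and 10.82 in silenced vehicle and 10.73, 10.79 and 10.64 in silenced R1881. These groups did not overlap, and the changes with SRF siRNA were -0.58 ± 0.10 in vehicle and -0.38 ± 0.10 in R1881 (adjusted p = 0.000387 and 0.00564). The dimmer 1563253_s_at read 7.94, 7.60 and 7.98 in control vehicle, 7.44, 7.48 and 7.25 in control R1881, 7.13, 7.08 and 6.70 in silenced vehicle and 6.72, 6.54 and 5.63 in silenced R1881. Its silenced groups overlapped and the third silenced R1881 array was again the lowest, with changes for SRF siRNA of -0.88 ± 0.24 and -1.10 ± 0.24 (adjusted p = 0.00927 and 0.00212).

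R1881 lowered ERBB3 in control cells on 2 of the 3 probe sets (-0.24 ± 0.07 for 226213_at and -0.40 ± 0.10 for 202454_s_at, adjusted p = 0.0159 and 0.00375), and 1563253_s_at stood at -0.45 ± 0.24 (adjusted p = 0.126). The last value passed without the third silenced R1881 array (adjusted p = 0.0158), without the third array of both silenced groups (0.00735) and in a fit of the 2 groups alone (0.0171). For 226213_at the call was lost without the second or the third control vehicle array or the first control R1881 array (adjusted p = 0.0519, 0.0535 and 0.0647). In silenced cells the R1881 change was 0.0027 for 226213_at (95% interval -0.16 to 0.16) and -0.20 for 202454_s_at (-0.41 to 0.0080). The latter passed after quantile normalization (adjusted p = 0.037) and with an intensity trend and robust variance (adjusted p = 0.0485). The R1881 change in silenced cells passed for 1563253_s_at at -0.67 ± 0.24 (adjusted p = 0.035), and without the third silenced R1881 array that value was -0.34 (adjusted p = 0.0974). It was also not called without the first or the second silenced vehicle array (adjusted p = 0.105 and 0.0969). No ERBB3 probe set passed the test for a difference of R1881 effects, with the lowest adjusted p, 0.136, for 226213_at (0.24, 95% interval 0.01 to 0.47). After quantile normalization that difference passed at 0.30 (adjusted p = 0.0393).

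EGF, the founding ligand of EGFR, rose with R1881, and rose less after SRF silencing. Its probe set 206254_at read 4.43, 4.61 and 4.69 in control vehicle, 6.69, 6.47 and 6.68 in control R1881, 4.23, 4.17 and 4.07 in silenced vehicle and 4.85, 5.09 and 4.58 in silenced R1881. Control R1881 stood above all other groups, and the silenced R1881 arrays overlapped the control vehicle arrays. R1881 raised EGF 4.10-fold with control siRNA (2.04 ± 0.12, adjusted p = 7.81e-08), a change exceeded by 3.38% of tested probe sets. With SRF siRNA the rise was 1.60-fold (0.68 ± 0.12, adjusted p = 0.000835).

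The difference of the EGF responses was -1.36 ± 0.18 on the log2 scale, with a 95% interval of -1.74 to -0.97 (adjusted p = 0.000334). SRF siRNA lowered EGF to 74.9% in vehicle (-0.42 ± 0.12, adjusted p = 0.0157) and to 29.2% in R1881 (-1.77 ± 0.12, adjusted p = 4.61e-07). The vehicle call was lost without the third array of either vehicle group (adjusted p = 0.0581 without the control array, 0.0554 without the silenced array). All 6 of these vehicle levels lay between 4.07 and 4.69, close to the filter value. EGF has a single probe set, so no second one stands beside it.

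HBEGF, a ligand of EGFR and ERBB4, moved with R1881 in opposite directions with and without SRF silencing. The brighter probe set 203821_at read 5.57, 5.72 and 5.56 in control vehicle and 6.25, 6.20 and 6.19 in control R1881. With SRF siRNA it read 6.04, 6.02 and 6.09 in vehicle and 5.48, 5.42 and 4.56 in R1881. No groups overlapped, and silenced R1881 was the lowest group. R1881 raised the signal 1.51-fold with control siRNA (0.59 ± 0.19, adjusted p = 0.0185) and lowered it to 53.7% with SRF siRNA (-0.90 ± 0.19, adjusted p = 0.0021). The rise with control siRNA was not called without the first or the third control vehicle array (adjusted p = 0.0508 and 0.052), nor with no filter (adjusted p = 0.0719).

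The difference of the HBEGF responses on 203821_at was -1.49 ± 0.27, with a 95% interval of -2.08 to -0.91 (adjusted p = 0.0026). The third silenced R1881 array was the lowest of all 12. Without it the difference was -1.19 (adjusted p = 4.95e-05), the fall in silenced cells -0.60 (adjusted p = 0.000126) and the rise in control cells had an adjusted p of 3.39e-05. SRF siRNA lowered this probe set in R1881 (-1.06 ± 0.19, adjusted p = 0.000562). In vehicle the value was 0.43 ± 0.19 (adjusted p = 0.0774), and it passed without the third silenced R1881 array (adjusted p = 0.00045).

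The second tested HBEGF probe set, 38037_at, was dim. It read 3.51, 3.41 and 3.55 in control vehicle, 4.59, 4.24 and 3.98 in control R1881, 3.97, 5.12 and 3.85 in silenced vehicle and 2.95, 2.91 and 2.89 in silenced R1881. It exceeded 4 on exactly 3 arrays, all in the groups where it was highest, so its entry into the test depended on those groups. Its R1881 effects were 0.78 ± 0.27 with control siRNA and -1.40 ± 0.27 with SRF siRNA (adjusted p = 0.0277 and 0.00115), the first not called without any 1 of the control vehicle arrays (adjusted p = 0.0521 to 0.073), and their difference was -2.18 ± 0.38 (adjusted p = 0.00224). With SRF siRNA the changes were 0.82 ± 0.27 in vehicle (adjusted p = 0.0243) and -1.36 ± 0.27 in R1881 (adjusted p = 0.00117). The vehicle call was lost without the first or the second control vehicle array (adjusted p = 0.0536 and 0.0663). With values under 4 set to 4 this probe set passed in none of the 5 comparisons, and the difference of effects was -0.65 (adjusted p = 0.226).

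**Figure D2:**
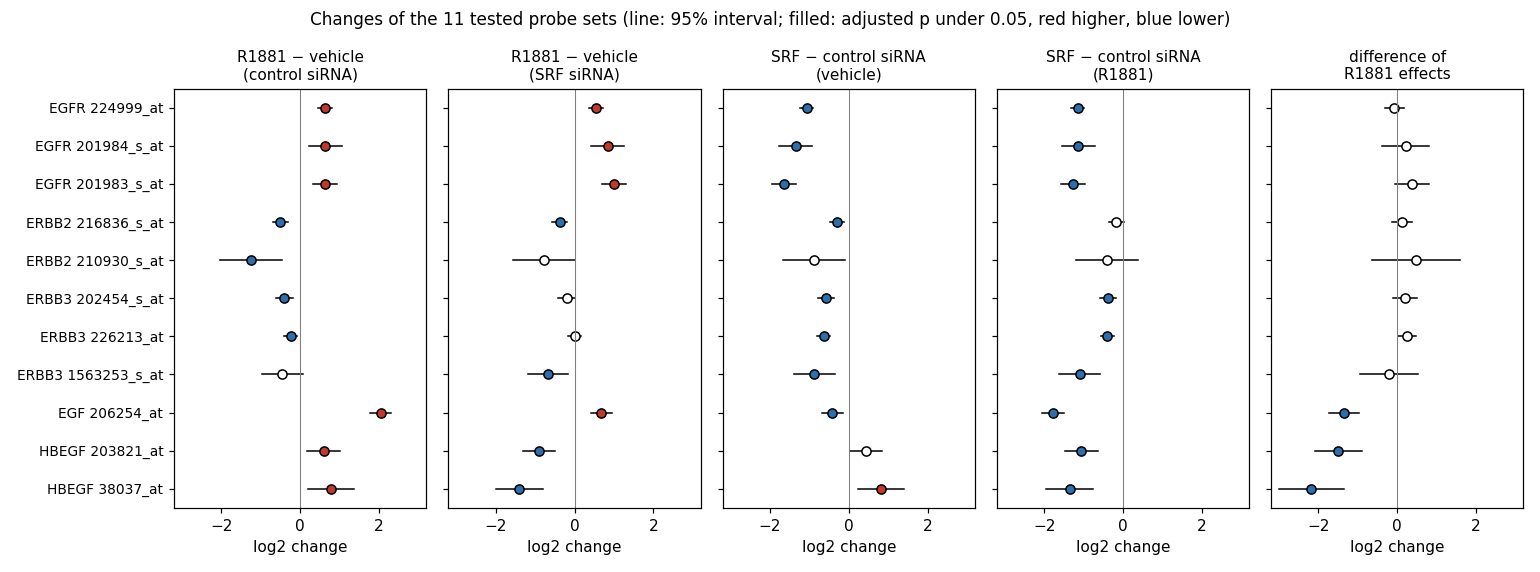
Log2 change (horizontal axis) of the 11 tested probe sets (vertical axis) in the 5 comparisons, with the 95% interval of each as a line. Filled points passed at an adjusted p under 0.05, red for higher and blue for lower. In the last panel, the difference of R1881 effects, EGF and HBEGF 203821_at are filled and no receptor probe set is. HBEGF 38037_at is filled in all 5 panels, but it lies below 4 on most arrays and is called in none with values under 4 set to 4.

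Genes with the pattern most like each member were found by Pearson correlation over the 12 arrays, as a description. EGFR (224999_at) was nearest to DNAJC3 at 0.990, G3BP2 at 0.989 and TMEM41B at 0.988. EGF was nearest to SERP1 at 0.995, PIERCE2 at 0.990 and UBE2J1 at 0.988. ERBB3 (202454_s_at) was nearest to NDRG3 at 0.979, TRAF4 at 0.976 and RPL7L1 at 0.968. ERBB2 (216836_s_at) was nearest to TOR1AIP1 at 0.972, ZNF385A at 0.967 and KANSL3 at 0.962. For HBEGF (203821_at) the highest values were lower, with MINPP1 at 0.886, RIC8B at 0.868 and BZW1 at 0.854. Among the members, EGFR (224999_at) and EGF correlated at 0.856 and ERBB2 (216836_s_at) and ERBB3 (202454_s_at) at 0.779, over arrays that share groups.

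The other genes of the pathway were taken from 4 lists that name 64 genes. A probe set was found for 57 and 46 could be tested, each by its brightest tested probe set. With R1881 in control cells 10 of the 46 rose and 19 fell, where 59.1% of all 10265 genes were called, 26.1% higher and 32.9% lower. In silenced cells 17 rose and 14 fell (50.8% of all genes called, 24.4% higher and 26.4% lower). The genes that fell in both R1881 comparisons include NRG3 and LRIG3, whose R1881 means lay below 4. With SRF siRNA 8 rose and 12 fell in vehicle (53.1% of all genes called, 29.3% higher and 23.8% lower), and 17 rose and 10 fell in R1881 (56.9%, 32.4% and 24.5%). The R1881 effect differed between the siRNAs for 10, of which 8 were higher and 2 lower after silencing (20.7% of all genes called, 11.4% higher and 9.28% lower). That last count fell to 3 without the third control R1881 array, to 4 without the first or the second of that group or the second of either silenced group, to 5 without the third silenced R1881 array and to 6 without the second control vehicle array. The median log2 change over the 46 was -0.18 and 0.01 for R1881 in control and silenced cells and 0.01 and 0.13 for SRF siRNA in vehicle and R1881. Over all genes these medians were -0.05, -0.03, 0.04 and 0.06.

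Of 8 further ligands 3 were tested. TGFA, which encodes the EGFR ligand TGF-alpha, fell with R1881 in both siRNA states (-1.13 ± 0.12 with control siRNA and -0.55 ± 0.12 with SRF siRNA, adjusted p = 1.03e-05 and 0.0031), where EGF rose. Its group means were 5.22 in control vehicle, 4.09 in control R1881, 4.58 in silenced vehicle and 4.03 in silenced R1881. The difference of effects was 0.58 ± 0.17 (adjusted p = 0.0384), with both R1881 means close to the filter value of 4. SRF siRNA lowered TGFA in vehicle (-0.64 ± 0.12, adjusted p = 0.00111). In R1881 none of the 3 passed in limma, with 0 at an unadjusted p under 0.05, where 56.9% of all genes passed. NRG3, a neuregulin gene, had group means of 4.0 in control vehicle, 2.53 in control R1881, 4.78 in silenced vehicle and 2.72 in silenced R1881. It entered the test only through the vehicle groups and lay below 4 on average with R1881, so its calls, counted as lower in both R1881 comparisons, are given no fold.

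Of 9 genes that act in ligand release, 7 were tested. R1881 raised 3 and lowered 1 with control siRNA and raised 4 and lowered 1 with SRF siRNA. Of all genes, 59.1% and 50.8% were called in these comparisons. The metalloprotease gene ADAM9 rose by 1.11 ± 0.11 and 0.86 ± 0.11 and RHBDF1, which encodes an inactive rhomboid protein that escorts ADAM17, by 0.94 ± 0.09 and 1.12 ± 0.09. ADAM15 fell, with values of -0.90 ± 0.15 and -0.74 ± 0.15. SRF siRNA raised ADAM17, the main sheddase of EGFR ligands, by 1.26 ± 0.10 in vehicle and 1.33 ± 0.10 in R1881 (adjusted p = 1.15e-06 and 5.85e-07), and lowered ADAM15 (-0.81 ± 0.15 and -0.65 ± 0.15). It lowered ADAM10 in both vehicle and R1881 (-0.70 ± 0.07 and -0.49 ± 0.07). In R1881 it raised FRMD8, a partner of the inactive rhomboids, by 0.76 ± 0.24 (adjusted p = 0.0204). With SRF siRNA in R1881 all 7 passed, 5 higher and 2 lower, where 56.9% of all genes passed, 32.4% higher and 24.5% lower. For the difference of R1881 effects in limma none of the 7 passed, where 20.7% of all genes did. Of the 7, 1 had an unadjusted p under 0.05 there.

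Of 27 adaptor and proximal signalling genes, 19 were tested, and with R1881 in control cells 2 rose and 10 fell. Of all genes 59.1% were called there, 26.1% higher and 32.9% lower. PIK3R3, which encodes a regulatory subunit of PI3K, fell with R1881 (-2.47 ± 0.08 with control siRNA and -2.30 ± 0.08 with SRF siRNA, adjusted p = 3.82e-10 and 9.08e-10). PIK3R1, the gene of another PI3K regulatory subunit, fell in control cells (-1.25 ± 0.09, adjusted p = 3.44e-07) and rose in silenced cells (0.58 ± 0.09, adjusted p = 3.00e-04). Its group means were 10.20 in control vehicle, 8.95 in control R1881, 8.75 in silenced vehicle and 9.33 in silenced R1881, a difference of effects of 1.83 ± 0.13 (adjusted p = 4.21e-06). The catalytic subunit gene PIK3CB fell in control cells (-0.79 ± 0.09) and its difference of effects was 0.67 ± 0.12 (adjusted p = 0.00322), and GAB1, a docking protein gene, fell in both states (-0.57 ± 0.18 in control and -0.75 ± 0.18 in silenced cells). In silenced cells 5 of the 19 rose and 6 fell, where 50.8% of all genes were called. SRF siRNA in vehicle raised 3 and lowered 4, among them PIK3R1 at -1.45 ± 0.09, the phosphatase gene PTPN11 at -0.79 ± 0.09 and the adaptor gene SHC1 at 0.69 ± 0.07. In R1881 it raised 7 and lowered 2, with the adaptor gene NCK1 at 0.60 ± 0.11, the RAS exchange factor gene SOS2 at 0.59 ± 0.15 and STAT5B at -0.53 ± 0.12. The difference of effects passed for 3, all higher, the third being PTPN11 at 0.44 ± 0.12. Of all genes 53.1% and 56.9% passed with SRF siRNA in vehicle and R1881, and 20.7% for the difference.

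Of 20 genes that restrain the receptors or control their turnover, 17 were tested. R1881 raised 5 and lowered 6 with control siRNA and raised 8 and lowered 5 with SRF siRNA. Of all genes, 59.1% and 50.8% were called in these comparisons. LRIG3, counted as lower in both, had means of 4.25 in control vehicle, 3.57 in control R1881, 4.39 in silenced vehicle and 3.58 in silenced R1881. Its R1881 means lie below the filter value of 4, so it is given no fold. ERRFI1, which encodes the EGFR kinase inhibitor MIG6, rose by 3.13 ± 0.10 with control siRNA and 3.59 ± 0.10 with SRF siRNA (adjusted p = 2.68e-10 and 1.27e-10), from group means of 7.70 to 10.83 and of 8.05 to 11.64. The difference was 0.46 ± 0.13 (adjusted p = 0.0357). LRIG1, which encodes a membrane protein that promotes ERBB receptor degradation, rose by 1.76 ± 0.07 and 1.42 ± 0.07 and was lowered by SRF siRNA (-0.84 ± 0.07 in vehicle and -1.19 ± 0.07 in R1881). PTPN1, a tyrosine phosphatase gene, rose with R1881 by 1.17 ± 0.12 in control and 0.82 ± 0.12 in silenced cells, and the endocytic gene EPS15 by 0.64 ± 0.10 and 0.88 ± 0.10.

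In vehicle SRF siRNA raised 3 and lowered 5 of the 17 restraint and turnover genes, among them SH3KBP1, an adaptor gene of the CBL ubiquitin ligases, at -0.81 ± 0.13 and RNF41, which encodes a ubiquitin ligase for ERBB3, at -0.69 ± 0.08. In R1881 it raised 5 and lowered 6, with ERRFI1 at 0.81 ± 0.10 and PA2G4, which encodes an ERBB3-binding protein, at 0.88 ± 0.08. The R1881 effect differed for 6, of which 4 were higher and 2 lower after silencing. Among them were RNF41 at 0.45 ± 0.11 and the ubiquitin ligase gene CBL at -0.41 ± 0.12 (adjusted p = 0.0136 and 0.0386). Of all genes 53.1% and 56.9% were called with SRF siRNA in vehicle and R1881, and 20.7% for the difference. Over the 4 lists the calls for the difference, 10 in the main fit, ran from 3 to 8 without single arrays.

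**Figure D3:**
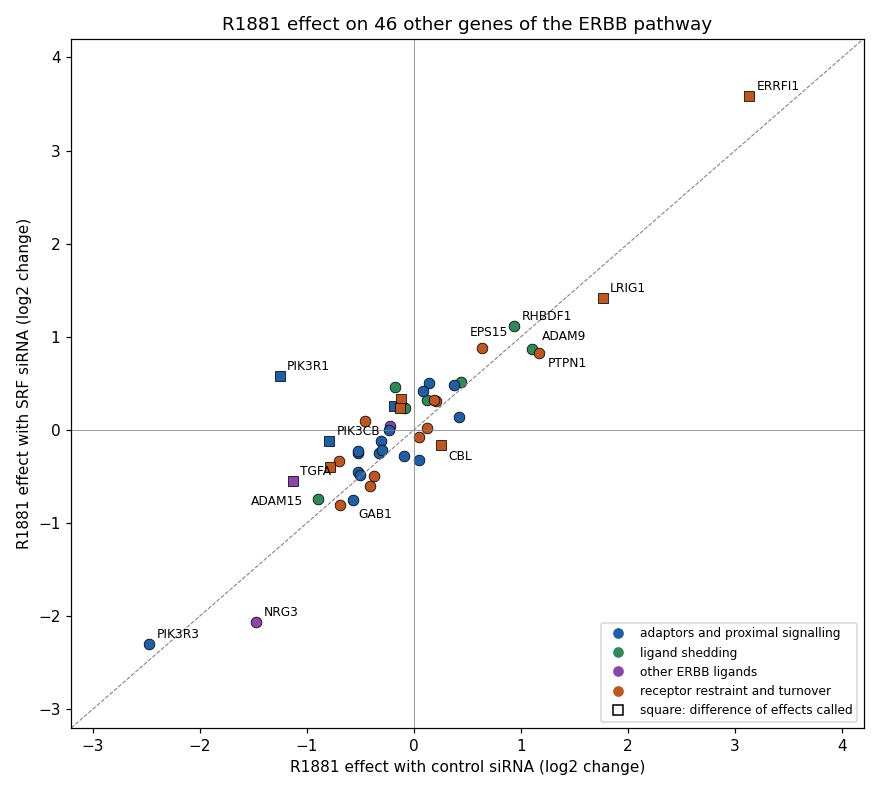
R1881 effect (log2 change) with control siRNA (horizontal axis) and with SRF siRNA (vertical axis) for the 46 tested genes of the 4 pathway lists, coloured by list. Squares mark the 10 genes whose effects differed at an adjusted p under 0.05, and the dashed line marks equal effects. ERRFI1 is highest on both axes and PIK3R1 lies below 0 on the horizontal and above 0 on the vertical axis.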

How the data were processed

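The deposited values were log2 signals, 1 per probe set and array, made by the authors with GCRMA per the submitters' processing notes, whose version and chip definition are not given in the sources used here. Array medians ran from 2.97 to 3.06 and 37.3% to 37.9% of probe sets lay above 4, so no further normalization was applied. Gene names came from the platform table (41091 probe sets with 1 symbol, 1801 with several, 11721 with none and 62 controls). Control probe sets were left out, and a probe set was tested if above 4 on at least 3 of 12 arrays. With limma 3.58.1 in R 4.3.3, the means of all 4 groups were estimated in 1 model for 21526 probe sets, with Benjamini-Hochberg adjustment over all of them and calls at an adjusted p under 0.05. SE is the moderated standard error. The code of the fit was run on simulated data with independent normal noise and changes placed in 1 group. That setting differs from these arrays, so it does not bear on the calls here.

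Pathway genes were represented by their tested probe set of highest mean, and for every list and comparison those named are the 3 that passed with the greatest absolute change. The members and lists were chosen with earlier results of these data known. No pairing by replicate number was seen: 2 of 18 same-numbered pairs of arrays had deviations correlated above 0.1, against 4 of 36 others. With 3 arrays per group this cannot exclude pairing. Alternatives changed the filter or floor, the normalization, the variance model, the threshold, the arrays fitted and the choice of a gene's probe set, added a replicate block and left out each array in turn. The number of arrays limits the precision. Figures were drawn with matplotlib 3.10.9.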

Additional observations from a re-analysis of the deposited data

Results flagged for a closer look

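The R1881 response differed between SRF siRNA and control siRNA for EGF and for HBEGF on its brighter probe set, by the test of the difference itself in limma. The difference was -1.36 for EGF (206254_at, adjusted p = 0.000334) and -1.49 for HBEGF on 203821_at (adjusted p = 0.0026). The dim HBEGF probe set 38037_at gave -2.18, but it passed the filter only through the groups where it is high, and with values under 4 set to 4 the difference was -0.65 (adjusted p = 0.226), so it is given as a value and not as support. EGF rose in both states and less after silencing, and HBEGF on 203821_at rose in control cells and fell in silenced cells. The rise was not called with no filter (adjusted p = 0.0719). Leaving out each array in turn gave -1.48 to -1.23 for EGF (adjusted p = 0.000223 to 0.00149) and -1.65 to -1.19 for 203821_at (adjusted p = 4.95e-05 to 0.00817).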

How the results depend on the processing

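The EGFR falls with SRF siRNA and the EGF difference kept their direction and call in every alternative that could fit the probe set. Over the 11 probe sets and 5 comparisons, 1137 alternative values kept direction and call, 41 lost the call, 17 gained it and 9 changed sign. No pairing by replicate number was seen: the deviations of same-numbered arrays correlated at -0.184 to 0.191, and those of others at -0.137 to 0.172. The replicate block gave 10, 8, 9, 9 and 3 member calls in the 5 comparisons, as without it, and 27, 28, 18, 27 and 7 pathway gene calls. With no filter 6 member probe sets were called for R1881 in control cells, and at an adjusted p under 0.01, 5, with 2 pathway genes for the difference of effects. With 1 probe set per gene, which leaves 5 members, the first 4 comparisons had 5, 4, 4 and 4 calls. Without single arrays, pathway genes called for the difference ran from 3 to 8, and without the third array of both silenced groups there were 5. Values changed sign as follows. ERBB3 226213_at for R1881 in silenced cells was -0.037 after quantile normalization, -0.00063 with equal medians and -0.034 without the third array of both silenced groups, and ran from -0.031 to 0.023 without single arrays. ERBB2 210930_s_at for SRF siRNA in R1881 ran from -0.73 to 0.10 without single arrays and was 0.10 without the third array of both silenced groups. The ERBB3 1563253_s_at difference of effects ran from -0.43 to 0.11 without single arrays. The cause was not tested. Signals near 4 depend on the GCRMA background.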
